A study of Homo sapiens with 10 samples.

Results

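The genes described here are the peroxisome proliferator-activated receptors (PPARs) PPARA, PPARD and PPARG, together with 7 genes of fatty acid handling that PPARs are known to control: ANGPTL4, PLIN2, PDK4, CPT1A, FABP3, FABP5 and ACADVL. They were chosen by name and make up 10 of the 34567 genes in the deposited table. All 10 had a row, and 9 of them passed the filter on low counts and were tested. PDK4 did not pass.

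PPARs are nuclear receptors that bind fatty acids and their derivatives, pair with a retinoid X receptor on DNA, and switch on genes for the uptake, storage and burning of lipid. ANGPTL4, a secreted inhibitor of lipoprotein lipase, is a classical PPAR target that is also known to be induced by low oxygen and by glucocorticoids. CPT1A and PDK4, both PPAR targets too, favour the burning of fatty acids over glucose in mitochondria.

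MEOX2 is a homeobox transcription factor, and its level was changed in opposite directions in a pair of human glioma cell lines. SNB19 cells, where MEOX2 is expressed, received a transient transfection of Scramble siRNA (3 libraries) or MEOX2 siRNA (3 libraries). U87 cells carried a stable lentivirus, either empty vector (EV, 2 libraries) or MEOX2 overexpression (OE, 2 libraries), and all of them went through puromycin selection. Nothing in the sources used here says which of the MEOX2 siRNAs was sequenced, whether the U87 lines were pools or clones, or whether replicates were separate cultures, so p-values measure the spread between these libraries, which may be technical.

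The 10 poly(A) RNA libraries held 12533775 to 16560324 gene counts each. MEOX2 itself (chr7:15611212-15686812, minus strand, GRCh38) had 249, 224 and 275 counts with Scramble siRNA and 54, 40 and 49 with MEOX2 siRNA, a log2 fold change of -2.42 (SE 0.14, adjusted p = 9.1e-05). In U87 it had 0 counts in both EV libraries and 4999 and 5308 in the OE libraries, at least 1489-fold higher when EV is set at a floor of 3 counts per library. Those reads can come from the introduced copy. EV replicate 1 stood apart from the other 9 libraries. Ribosomal protein genes took 13.0% of its counts (4.0 to 6.7% elsewhere) and genes with under 2000 exon bases took 18.7% (9.3 to 10.8% elsewhere), and the EV libraries differed from each other by a median of 0.732 on the log2 scale, against 0.11 to 0.172 for other replicate pairs. Many U87 results below, though not all, are therefore also given with 1 EV library left out. Of 11 glial and glioma markers, 7 reached 1 FPKM (the deposited fragments per kilobase of exon, scaled to library size) in both SNB19 groups, 6 in EV and 5 in OE. VIM, CD44, EGFR, SOX9 and OLIG2 were among them in every group, while GFAP, S100B, AQP4 and PTPRZ1 had group means under 1 FPKM throughout. Of 13 measured markers of other cell types, at most 1 reached 1 FPKM in a group (PECAM1 with Scramble siRNA, SNAP25 in EV), with summed levels of 1.37 to 7.04 FPKM. The markers moved with the treatments, and those that rose or fell are counted at an adjusted p under 0.05. Over all genes tested, 8.75% fell and 6.99% rose on knockdown, and 14.9% fell and 11.3% rose on overexpression. On knockdown 5 of 8 tested glial markers fell and 0 rose (median log2 fold change -1.20), SOX9 by 1.87, NES by 1.22 and CD44 by 1.19, and the summed level went from 246 to 247 FPKM down to 122 to 126 FPKM. Of 6 tested markers of other cell types 3 fell on knockdown, including the endothelial markers PECAM1 (-2.63) and CDH5 (-4.76), and their summed level went from 6.21 to 7.04 FPKM down to 1.96 to 2.26 FPKM. In U87 OE against EV, NES fell by 4.02 and VIM by 2.33 (by 0.99 without EV replicate 1), OLIG2 rose by 1.78, and of the other markers 1 rose and 3 fell. The glial sum was 339 and 756.1 FPKM in EV and 210 and 215 FPKM in OE. The part of these shifts in the results below was not tested.

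The stretches of DNA just before the RefSeq transcription starts (GRCh38.p14) are shown for 3 of the genes on which the results turn: ANGPTL4, which moved against MEOX2 in both lines, CPT1A, which moved with it, and PPARA, the receptor whose fold changes had the sign of CPT1A in each line. RefSeq windows were found for 9 of the genes. Capitals mark the letters AGGTCA (the hexamer that a PPAR site holds as a pair), TAAT (the core bound by many homeodomains) and ACGTG (the core bound by hypoxia-inducible factors), on either strand. Neighbouring TAAT matches may overlap. Bases that any GENCODE 29 transcript counts as exon were left off the end nearest the start, which removed 4 bases for ANGPTL4, 133 for CPT1A and 5 for PPARA.
ANGPTL4, chr19:8363905-8364150, plus strand: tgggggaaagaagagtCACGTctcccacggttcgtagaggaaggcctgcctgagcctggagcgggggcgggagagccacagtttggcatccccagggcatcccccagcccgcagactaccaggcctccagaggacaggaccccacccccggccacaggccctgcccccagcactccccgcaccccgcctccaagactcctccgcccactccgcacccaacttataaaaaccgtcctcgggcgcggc
CPT1A, chr11:68844411-68844527, minus strand: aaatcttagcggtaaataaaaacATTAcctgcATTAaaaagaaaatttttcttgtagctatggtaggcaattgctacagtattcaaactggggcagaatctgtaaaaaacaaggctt
PPARA, chr22:46150276-46150520, plus strand: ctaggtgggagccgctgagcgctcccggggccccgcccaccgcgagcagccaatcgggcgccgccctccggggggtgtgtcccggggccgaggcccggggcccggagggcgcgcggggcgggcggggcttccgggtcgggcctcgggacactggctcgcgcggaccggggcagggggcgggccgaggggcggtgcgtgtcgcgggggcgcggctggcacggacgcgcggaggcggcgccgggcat
Over the whole 250 bases, the ANGPTL4 window held 0 AGGTCA, 0 TAAT and 1 ACGTG, and the CPT1A window held 5 TAAT, 2 of them in the part shown. The PPARA window held none of the 3 motifs. Of 35116 human windows of the same length, 12.1% held AGGTCA, 47.4% held TAAT and 18.5% held ACGTG, so single matches to such short motifs are common. A match is only a match of letters. G and C made up 68.3% of the ANGPTL4 stretch, 32.5% of the CPT1A stretch and 84.1% of the PPARA stretch.

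Among the receptors, PPARD (chr6:35342558-35428191) was the highest by FPKM in both lines. Its level was 16.3, 16.4 and 17.2 FPKM with Scramble siRNA and 12.8, 12.0 and 13.0 FPKM with MEOX2 siRNA. In U87 it was 5.08 and 6.69 FPKM in EV and 4.78 and 4.66 FPKM in OE. Every treated library was below every control library in both lines. PPARA (chr22:46150521-46243756), the receptor best known for fatty acid oxidation, was at 2.85, 2.43 and 2.76 FPKM with Scramble siRNA and 1.80, 1.91 and 1.89 FPKM with MEOX2 siRNA. In U87 it was at 0.796 and 2.36 FPKM in EV and 3.43 and 2.83 FPKM in OE. The siRNA libraries were all below the Scramble libraries and the OE libraries were both above the EV libraries, but EV replicate 1 was far below EV replicate 2. PPARG (chr3:12287368-12434356), known as the adipocyte receptor, had 4, 0 and 2 counts with Scramble siRNA and 6, 2 and 2 with MEOX2 siRNA. It was at 1.31 and 1.91 FPKM in EV and 1.64 and 1.64 FPKM in OE. PPARG was therefore near the floor in SNB19 and low but present in U87.

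**Figure D1:**
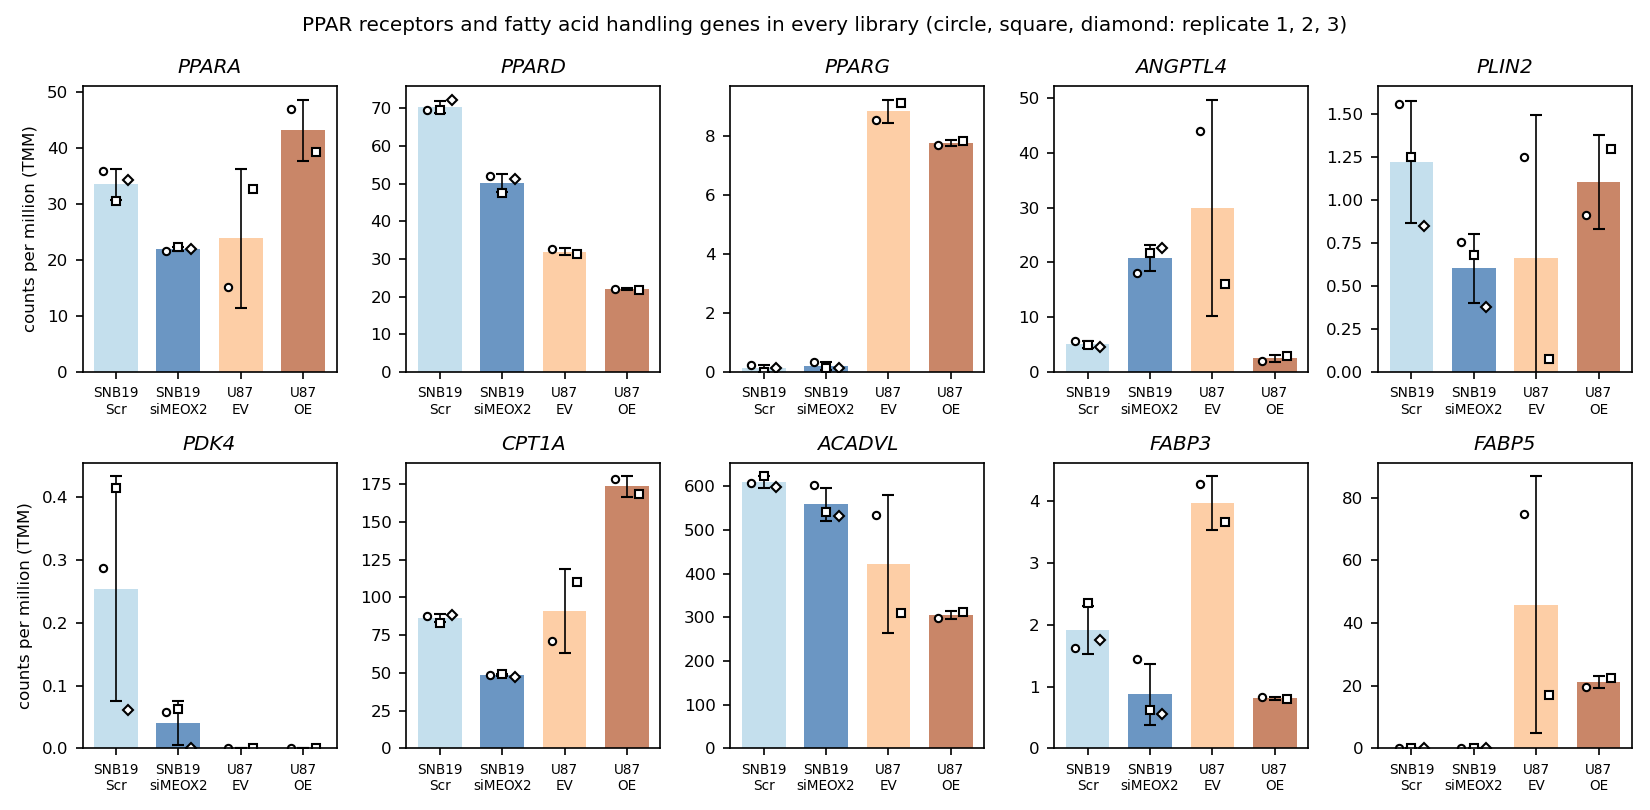
CPM (y axis, counts scaled to library size by TMM, each panel on its own scale from 0) of the 10 genes in the 4 groups, with the mean (bar), SD (error line, cut off at 0) and each library (points). Scr is Scramble siRNA, EV empty vector and OE overexpression. ANGPTL4 lies at 4.49 to 5.71 with Scramble siRNA and 18.1 to 22.5 with MEOX2 siRNA, and at 16 and 43.9 in EV against 1.99 and 2.95 in OE.

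Per length, the order of the 10 genes differed between lines. ACADVL was the highest in every group, at 132 ± 2.4 FPKM (SD, n = 3) with Scramble siRNA and 68.5 ± 10.9 FPKM (SD, n = 2) in EV. PPARD and CPT1A followed with Scramble siRNA, at 16.7 ± 0.50 and 13.9 ± 0.46 FPKM (SD, n = 3). PPARA came next at 2.68 ± 0.22 FPKM (SD, n = 3), and the ranges of ANGPTL4 and FABP3 below it overlapped. With MEOX2 siRNA, ANGPTL4 came right after ACADVL and PPARD, at 9.38 ± 1.21 FPKM (SD, n = 3), its range overlapping that of CPT1A. In EV, the ranges of FABP5, CPT1A, ANGPTL4 and PPARD each overlapped the next in order. In OE, ANGPTL4 came after 6 of the other genes, at 0.950 ± 0.252 FPKM (SD, n = 2), overlapping FABP3. PLIN2 was at 0.321 FPKM or less and PDK4 at 0.097 FPKM or less in all 10 libraries.

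To ask whether these genes respond to loss of MEOX2, MEOX2 siRNA was compared with Scramble siRNA. ANGPTL4 rose, while CPT1A and PPARD fell. By edgeR's quasi-likelihood test, 3 of the 9 tested genes had an adjusted p under 0.05, against 15.7% of all 17312 genes tested (6.99% higher and 8.75% lower). The libraries did not overlap for 6 of the 9, against 57.0% of all genes tested. Both shares are counts over a short list chosen by name.

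ANGPTL4 (chr19:8363289-8374373) had 99, 71 and 74 counts with Scramble siRNA and 312, 351 and 360 with MEOX2 siRNA. These are 5.71, 4.92 and 4.49 CPM (counts scaled to library size by TMM) against 18.1, 21.6 and 22.5 CPM, with every siRNA library above every Scramble library. The rise was 2.04 on the log2 scale (SE 0.34, adjusted p = 0.00463), or 4.11-fold with a 95% interval of 2.42 to 6.98. Of all tested genes, 221 had a larger rise. ANGPTL4 was among the genes that the study itself singled out on these samples, so its direction here is not independent evidence.

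CPT1A (chr11:68754620-68844410), the gatekeeper of fatty acid import into mitochondria, was at 87.7, 83.4 and 88.1 CPM with Scramble siRNA and 48.9, 49.0 and 47.6 CPM with MEOX2 siRNA. The groups were far apart, and CPT1A fell by 0.83 on the log2 scale (SE 0.15, adjusted p = 0.00756). On log2(FPKM + 1) limma gave -0.68 with an adjusted p of 0.0565. PPARD was at 69.6, 69.5 and 72.3 CPM against 52.0, 47.5 and 51.3 CPM. This smaller fall (log2 fold change -0.49, SE 0.10, adjusted p = 0.0105) missed the threshold without Scramble replicate 3 (adjusted p = 0.054) and without siRNA replicate 2 (adjusted p = 0.0651).

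The other tested genes did not pass. PPARA was at 35.9, 30.5 and 34.3 CPM against 21.6, 22.3 and 22.0 CPM (log2 fold change -0.61, SE 0.24, adjusted p = 0.118), with no overlap between the groups. FABP3 (chr1:31365625-31376850), a carrier that ferries fatty acids through the cytoplasm of muscle and other cells, was at 1.62, 2.35 and 1.76 CPM against 1.45, 0.616 and 0.563 CPM (log2 fold change -1.10, SE 0.37, adjusted p = 0.075). The siRNA replicate 1 value lay close to the Scramble range. PLIN2 (chr9:19108375-19149290), the coat protein of lipid droplets, had 27, 18 and 14 counts against 13, 11 and 6 (log2 fold change -1.0, SE 0.62, adjusted p = 0.324). ACADVL (chr17:7217125-7225273), which opens the beta-oxidation of very long chains, was at 608, 623 and 598 CPM against 603, 541 and 531 CPM. Its log2 fold change was -0.13 (95% interval -0.54 to 0.28, adjusted p = 0.709), and 85 of its exon bases are shared with a gene on the opposite strand, whose reads could not be told apart. PPARG gave a log2 fold change of 0.67 with a 95% interval of -0.99 to 2.33, too wide to show a direction.

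These calls share an estimate of spread with the U87 libraries. With SNB19 fitted alone, 6 of 7 tested genes passed, against 55.9% of all 15525 genes tested: PPARA (log2 fold change -0.60, adjusted p = 2.77e-06), FABP3 (-1.08, adjusted p = 0.0135) and PLIN2 (-0.99, adjusted p = 0.0344) were added to ANGPTL4, CPT1A and PPARD. In the joint fit without EV replicate 1, 5 of 9 passed (47.1% of all genes), and without EV replicate 2, 6 of 9 (47.3% of all genes).

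PDK4 (chr7:95583499-95596491), a kinase that shuts off pyruvate dehydrogenase, had 5, 6 and 1 counts with Scramble siRNA and 1, 1 and 0 with MEOX2 siRNA. Summed over the groups, 12 reads stood against 2, a ratio of 6.15 with an exact 95% interval of 1.37 to 56.6 that covers counting error only. The library ranges met at 1 count, and PDK4 was not tested. FABP5, an epidermal-type fatty acid carrier, had 0, 0 and 1 counts against 0, 0 and 0. Both groups are under the floor of 3 counts per library, so no fold change can be given for it in SNB19.

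**Figure D2:**
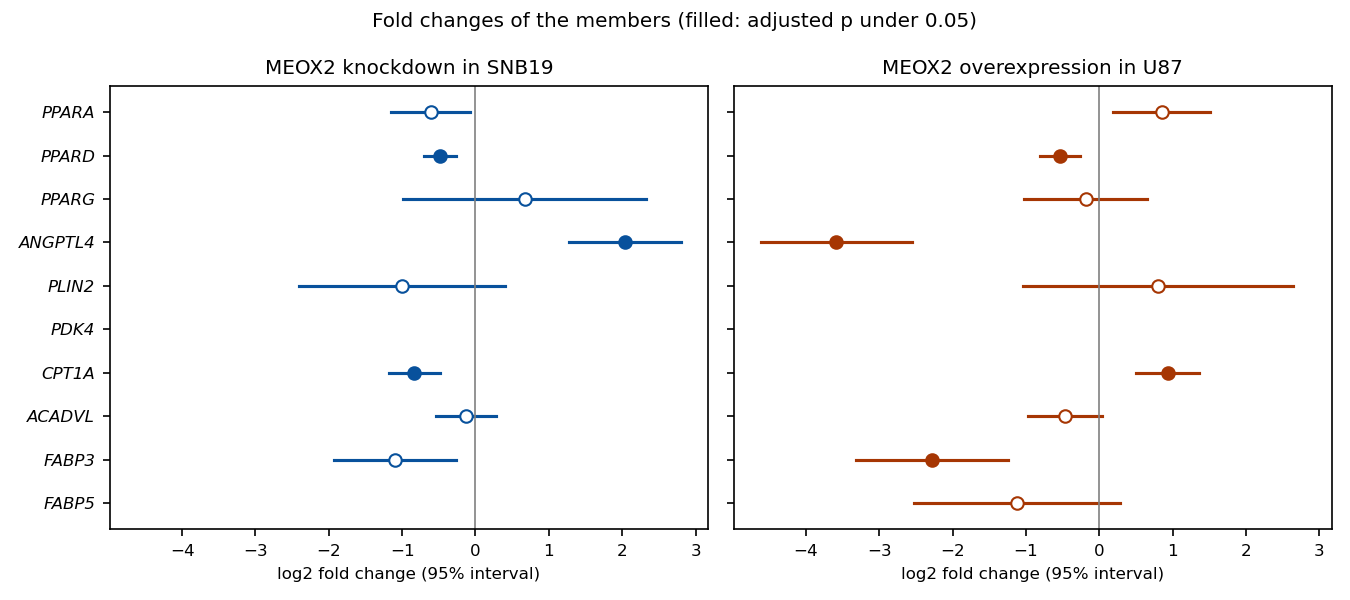
Log2 fold changes (x axis, shared scale) with 95% intervals (lines) of the 10 genes for MEOX2 siRNA in SNB19 and for MEOX2 overexpression in U87. Filled points have an adjusted p under 0.05, no point is drawn for PDK4 in either line or for FABP5 in SNB19, and ANGPTL4 lies at 2.04 in SNB19 and -3.58 in U87.

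To ask whether gain of MEOX2 moves the same genes the other way, OE was compared with EV in U87. ANGPTL4, FABP3 and PPARD fell and CPT1A rose. Of the 9 tested genes 4 passed, against 26.2% of all genes tested (11.3% higher and 14.9% lower). The libraries did not overlap for 6 of the 9, against 52.8% of all genes tested.

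ANGPTL4 had 493 and 214 counts in EV and 24 and 41 in OE. In CPM it was at 43.9 and 16 against 1.99 and 2.95, so that both OE libraries were far below the lower EV library. The log2 fold change was -3.58 (SE 0.46, adjusted p = 0.000852), to 8.33% of the EV level, and 151 tested genes fell further. The size depends on EV replicate 1: without it the log2 fold change was -2.63, and without EV replicate 2 it was -4.10. With U87 fitted alone, the value was -3.61 with an adjusted p of 0.156, a fit in which 0 of 14180 genes (0.0%) passed edgeR's test, with 2643 at an unadjusted p under 0.05. DESeq2 on all 10 libraries called 34.0% of genes, ANGPTL4 among them.

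CPT1A was at 71.3 and 111 CPM in EV and 178 and 169 CPM in OE. The groups did not overlap, and the log2 fold change was 0.93 (SE 0.19, adjusted p = 0.00781). It was 0.69 without EV replicate 1 and 1.32 without EV replicate 2, and the adjusted p was 0.0604 without OE replicate 1. PPARA was at 15.1 and 32.7 CPM against 47.1 and 39.4 CPM (log2 fold change 0.85, SE 0.29, adjusted p = 0.0592). The log2 fold change of PPARA was 0.44 without EV replicate 1 and 1.54 without EV replicate 2.

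FABP3 had 48 and 49 counts in EV and 10 and 11 in OE. This was 4.28 and 3.66 CPM against 0.828 and 0.791 CPM, with each pair close together and far from the other. The log2 fold change was -2.28 (SE 0.46, adjusted p = 0.00776). PPARD was at 32.6 and 31.3 CPM against 22.1 and 21.9 CPM (log2 fold change -0.54, SE 0.12, adjusted p = 0.0127). FABP3 and PPARD changed little with either EV library left out (-2.12 and -2.36 for FABP3, -0.47 and -0.54 for PPARD), but both missed the threshold when either OE library was left out (adjusted p of 0.0597 and 0.0638 for FABP3, 0.0857 and 0.0867 for PPARD). With FPKM in place of counts, the log2 fold change of PPARD was -0.26 (adjusted p = 0.183).

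For FABP5, ACADVL and PLIN2 the EV libraries lay far apart. FABP5 (chr8:81280363-81284777) was at 74.9 and 16.9 CPM in EV and 19.7 and 22.4 CPM in OE. The OE values lay between the EV values, and its log2 fold change of -1.12 (SE 0.60, adjusted p = 0.203) became 0.37 without EV replicate 1 and -1.79 without EV replicate 2. FABP5 has 6 pseudogenes in the table and 94 exon bases shared with a gene on the opposite strand, which adds uncertainty to its counts. ACADVL was at 534 and 310 CPM against 299 and 312 CPM (log2 fold change -0.47, SE 0.22, adjusted p = 0.147). The OE values lay close to EV replicate 2, and without EV replicate 1 the log2 fold change was 0.02. PLIN2 had 14 and 1 counts in EV and 11 and 18 in OE, and its log2 fold change ran from -0.13 without EV replicate 2 to 3.80 without EV replicate 1. PPARG, with EV libraries close together, was at 8.55 and 9.11 CPM against 7.70 and 7.84 CPM. Its log2 fold change was -0.19 (95% interval -1.02 to 0.66, adjusted p = 0.745). PDK4 had 0 counts in all 4 U87 libraries, which allows up to 3 counts in each, or 0.216 to 0.267 CPM.

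**Figure D3:**
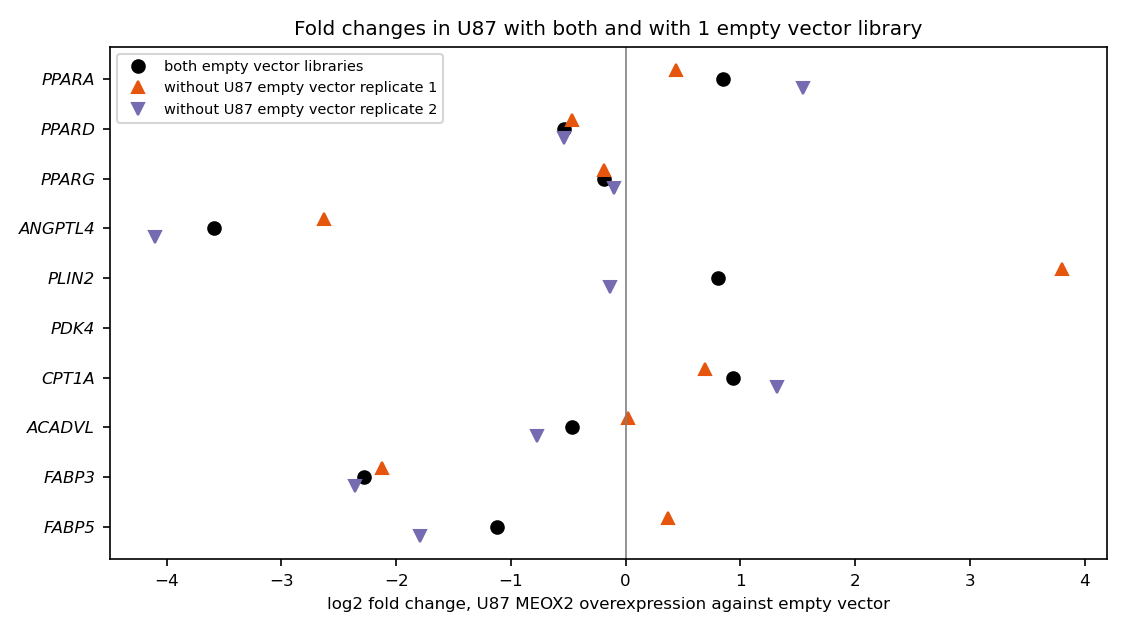
Log2 fold changes of the tested genes in U87 (x axis, OE against EV) with both EV libraries (circles), without EV replicate 1 (triangles up) and without EV replicate 2 (triangles down). PPARD, PPARG and FABP3 stay together, while PLIN2 runs from -0.13 to 3.80 and FABP5 from -1.79 to 0.37.

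Set side by side, ANGPTL4 had a log2 fold change of 2.04 on loss of MEOX2 in SNB19 and -3.58 on gain of MEOX2 in U87, and CPT1A had -0.83 and 0.93. Both passed edgeR's test on counts in each line with opposite signs. The study picked ANGPTL4 on these samples by an overlap of opposite changes in the lines. Its opposite signs here are therefore not independent evidence, and the counts of members that passed in each line include it. Over all genes tested, 109 (0.63%) passed as higher on knockdown and lower on overexpression and 142 (0.82%) the other way round, while 474 (2.74%) passed as lower in both and 321 (1.85%) as higher in both. Of the 9 tested genes 1 passed as lower in both, PPARD, and 0 as higher in both. PPARA pointed the same way as CPT1A in each line but passed in neither.

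The difference between lines was tested in the same fit, with each effect written as the MEOX2-higher group minus the MEOX2-lower group. By this measure 2 of the 9 tested genes differed between lines, PPARD and FABP3, against 24.4% of all genes tested. PPARD was 0.49 higher where MEOX2 was higher in SNB19 and 0.54 lower in U87, a difference of 1.03 (SE 0.16, 95% interval 0.68 to 1.38, adjusted p = 0.00181). FABP3 gave 1.10 in SNB19 and -2.28 in U87, a difference of 3.38 (SE 0.59, 95% interval 2.05 to 4.71, adjusted p = 0.00367). For ANGPTL4, which had -2.04 and -3.58, the difference was 1.55 (95% interval 0.30 to 2.79, adjusted p = 0.0698), and it passed without EV replicate 2 (2.05, adjusted p = 4.24e-08). For CPT1A the difference was -0.10 (95% interval -0.64 to 0.45, adjusted p = 0.808) and for PPARA -0.24 (95% interval -1.08 to 0.61, adjusted p = 0.683). The line, the way MEOX2 was changed and the time since the change go together here and cannot be told apart.

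The control groups of the lines also differed, with 5 of the 9 tested genes passing against 56.9% of all genes tested. PPARG was lower in SNB19 (log2 fold change -6.07, SE 0.50, adjusted p = 9.88e-06). FABP5 had 1067 reads over the EV libraries and 1 over the Scramble libraries, a ratio of 2092 with an exact 95% interval of 375 to 82723 that covers counting error only. ANGPTL4 (log2 fold change -2.56, SE 0.37, adjusted p = 0.00034; -1.67 without EV replicate 1 and -3.15 without EV replicate 2) and FABP3 (log2 fold change -1.05, SE 0.37, adjusted p = 0.0342) were also lower in SNB19, although the adjusted p of FABP3 ran from 0.00962 to 0.105 with each library left out in turn. PPARD was higher in SNB19 by 1.14 (SE 0.11, adjusted p = 3.35e-05). CPT1A had a log2 fold change of -0.07 with a 95% interval of -0.46 to 0.31. MEOX2 was at 14.4 to 16.7 CPM in the SNB19 controls and at 0 counts in the U87 controls. Transfection in the former and lentivirus with selection in the latter cannot be told apart from the line.

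By the rule that the nearest pair of fold changes in these comparisons counts as the most alike, the 5 genes closest to ANGPTL4 were ACSM3, LINC01768, MIR3681HG, LINC01433 and AL132655.2, at distances of 0.32 to 0.61 on the log2 scale. ACSM3, a medium-chain acyl-CoA synthetase of mitochondria, was at 0.865 to 1.58 CPM with Scramble siRNA and 4.22 to 5.11 CPM with MEOX2 siRNA (log2 fold change 1.92, adjusted p = 0.0036). In U87 it had 20 reads over EV and 2 over OE, a ratio of 10.6 with an exact 95% interval of 2.56 to 93.2 for counting error only. The other 4 did not pass on knockdown (adjusted p of 0.0702 to 0.133), and AL132655.2 had 1 to 2 counts in the Scramble libraries. MIR3681HG was at 2.46 to 12.1 CPM in EV and 0.414 to 0.575 CPM in OE, and AL132655.2 at 1.27 to 2.49 CPM against 0.083 to 0.36 CPM. LINC01768 and LINC01433 had at most 2 counts in any U87 library, so their nearness rests on fitted values.

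The wider PPAR pathway was described by 9 lists with 123 genes, of which 97 were tested. Of these, 8 rose and 11 fell on knockdown (15.7% of all genes passed), with a median log2 fold change of -0.07 beside 0.00 over all genes tested. On overexpression 14 rose and 21 fell (26.2% of all genes passed), with a median of -0.21 beside -0.02. With SNB19 fitted alone 25 rose and 40 fell out of 90 tested (55.9% of all genes passed). In the joint fit 6.99% of all genes rose and 8.75% fell on knockdown, and 11.3% rose and 14.9% fell on overexpression. The shares in this paragraph stand beside the list counts below. Without EV replicate 1 the overexpression counts were 27 and 25 out of 101 (38.9% of all genes passed), without EV replicate 2 they were 29 and 41 out of 100 (59.5% of all genes passed), and with U87 fitted alone 0 of 88 passed.

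Peroxisomal beta-oxidation, which shortens very long fatty acids, had 4 of 14 tested genes fall and 0 rise in each comparison, and the 4 were the same, with CAT, CROT and CRAT among them. Over all genes tested, 8.75% fell on knockdown, 14.9% fell on overexpression and 2.74% fell in both. The median log2 fold change of the list was -0.32 on knockdown and -0.54 on overexpression. The overexpression median was -0.35 without EV replicate 1 and -0.88 without EV replicate 2. CAT, the catalase that clears the hydrogen peroxide made in peroxisomes, had a log2 fold change of -0.64 on knockdown (adjusted p = 0.0182) and -1.58 on overexpression (adjusted p = 0.00056). CROT, which hands shortened chains to carnitine, had -0.75 (adjusted p = 0.0156) and -0.94 (adjusted p = 0.00985).

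Mitochondrial beta-oxidation, the list around CPT1A and ACADVL, had 1 of 20 tested genes fall on knockdown (ACAD9, log2 fold change -0.44, adjusted p = 0.0295) and 0 rise, with a median of -0.13. On overexpression 2 rose and 5 fell, with a median of -0.25. The steepest falls were those of ECI2 (-2.55), ETFB (-2.38) and HADH (-1.32), with adjusted p of 0.0119, 0.0317 and 0.00208. For ECI2 and ETFB the EV libraries were far apart, at 14.9 and 69.5 CPM and at 27.3 and 201 CPM, and without EV replicate 1 their log2 fold changes were -1.01 and -0.27. Without EV replicate 1 of these 20 genes 4 rose and 4 fell (median 0.00), and without EV replicate 2, 4 rose and 12 fell (median -0.48).

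The pyruvate dehydrogenase list, which holds the kinases related to PDK4, had 2 of 10 tested genes rise on knockdown. These were PDP2, a phosphatase that activates the complex (log2 fold change 0.60, adjusted p = 0.0354), and PDK1, a kinase that silences it (0.56, adjusted p = 0.0252). On overexpression PDP2 rose again (0.65, adjusted p = 0.0395) and 5 genes fell, among them the kinase PDK3 (-1.65, adjusted p = 0.000876) and PDHB, a subunit of the complex (-0.65, adjusted p = 0.00956). PDK1, which rose on knockdown, was also among those that fell (-0.64, adjusted p = 0.0235). Its value was -0.78 without EV replicate 1 and -0.40 without EV replicate 2. The medians were 0.14 and -0.30. The overexpression median was -0.17 without EV replicate 1 and -0.11 without EV replicate 2.

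Fatty acid uptake and transport had 12 of 20 genes tested. On knockdown 1 rose and 2 fell, with a median of -0.21. The long-chain acyl-CoA synthetases ACSL5 (log2 fold change -1.31, adjusted p = 0.00744) and ACSL1 (-0.60, adjusted p = 0.0349) fell, and the lipoprotein receptor VLDLR rose (0.46, adjusted p = 0.0175). On overexpression 3 rose and 4 fell, with a median of -0.84, or -0.58 without a gene at the floor in U87. Without EV replicate 1 the counts were 4 and 4 (median -0.33), and without EV replicate 2, 5 and 7 (median -1.11). With both EV libraries, the risers were ACSL1 (1.14, adjusted p = 0.0038), ACSL5 (1.07, adjusted p = 0.029) and VLDLR (0.75, adjusted p = 0.00313). ACSL1 and ACSL5 thus changed in opposite directions in the lines, while VLDLR rose in both. The transport protein SLC27A3 fell by 2.08 (adjusted p = 0.000998). SLC27A5 (-1.96, adjusted p = 0.0233) and DBI (-1.58, adjusted p = 0.021) fell with EV libraries far apart, to -0.54 and -0.49 without EV replicate 1.

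Lipid droplet proteins and lipases, the list around PLIN2, had 3 of 11 tested genes rise and 1 fall on knockdown, with a median of 0.16. With SNB19 fitted alone 3 rose and 5 fell out of 10 tested (55.9% of all genes passed), and the median was -0.04. With either EV library left out the median was -0.03. PLIN5, a droplet coat protein of oxidative tissue, went from 0.30 to 0.42 CPM to 1.97 to 3.25 CPM (log2 fold change 2.75, SE 0.39, adjusted p = 0.00319). HILPDA, an inhibitor of the lipase PNPLA2, went from 6.72 to 8.73 CPM to 24.6 to 32.2 CPM (log2 fold change 1.95, SE 0.22, adjusted p = 0.000866), and PNPLA2 itself fell (-0.80, adjusted p = 0.0291). On overexpression 3 rose and 2 fell, with a median of -0.32, or -0.46 without PLIN5, which was at the floor in U87. That median turned to 0.10 without EV replicate 1 (4 rose, 3 fell) and was -0.52 without EV replicate 2 (4 rose, 5 fell). MGLL, the monoglyceride lipase, rose by 1.62 (adjusted p = 0.000326). HILPDA fell by 1.03 (adjusted p = 0.0235), and G0S2, the other inhibitor of PNPLA2 in the list, fell by 2.98 (adjusted p = 0.00241). HILPDA thus went the way of ANGPTL4 in both lines, although its fall in U87 came to -0.53 without EV replicate 1.

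Other PPAR targets had 11 of 20 genes tested, and 2 rose and 2 fell on knockdown with a median of -0.07. FGF21, a fasting hormone, rose from 0.12 to 0.21 CPM to 0.88 to 1.48 CPM (log2 fold change 2.87, adjusted p = 0.00377). VNN1, a pantetheinase, rose by 1.45 (adjusted p = 0.00966), and TXNIP, which restrains glucose uptake, fell by 0.96 (adjusted p = 0.00578). On overexpression 3 rose and 1 fell, with a median of 1.31, or 0.85 with genes at the floor left out or set to their bound. VNN1 rose again (2.22, adjusted p = 0.00317), TXNIP rose (1.44, adjusted p = 0.0015) and GK, glycerol kinase, rose (1.31, adjusted p = 0.00197).

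Receptor partners and cofactors had 9 of 10 genes tested. RXRA, the partner receptor, fell on knockdown (log2 fold change -0.40, adjusted p = 0.0379; median of the list -0.18), and PPARGC1A, a coactivator of oxidative genes, rose on overexpression (0.99, adjusted p = 0.0225). The overexpression median was 0.70. It was 0.35 without EV replicate 1 and 1.43 without EV replicate 2. With U87 fitted alone 0 passed (0.0% of all genes). Of 6 tested regulators of lipoprotein lipase, the enzyme ANGPTL4 inhibits, 0 passed on knockdown in the joint fit by edgeR (median 0.02). The count was also 0 at an unadjusted p under 0.05 or by DESeq2. With SNB19 fitted alone 1 of 3 tested fell (55.9% of all genes passed). With either EV library left out the knockdown median was 0.03. On overexpression SEL1L, needed for the maturation of the lipase, rose (1.06, adjusted p = 0.0432, median of the list 0.10). The value of SEL1L was 0.60 without EV replicate 1 and 1.86 without EV replicate 2. Of 4 tested ketone body enzymes, 0 passed in either comparison by edgeR in the joint fit, with 2 and 0 at an unadjusted p under 0.05 and 2 and 0 by DESeq2 (which called 22.5% and 34.0% of all genes), and medians of 0.32 and -0.07. With SNB19 fitted alone 3 rose and 1 fell on knockdown (55.9% of all genes passed). Without EV replicate 1 the medians were 0.28 on knockdown and 0.86 on overexpression. Without EV replicate 2 they were 0.28 and 0.02.

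Because ANGPTL4, HILPDA and PDK1 are also known to respond to low oxygen, and ANGPTL4 to glucocorticoids, lists of both kinds were set beside them. Of 12 hypoxia genes, 5 rose and 0 fell on knockdown (6.99% and 8.75% of all genes tested), with a median log2 fold change of 0.47. VEGFA, the endothelial growth factor, rose by 1.59 (adjusted p = 0.00393), NDRG1 by 1.13 (adjusted p = 0.00128) and the glycolytic regulator PFKFB4 by 0.65 (adjusted p = 0.0032). On overexpression 1 rose and 6 fell (11.3% and 14.9% of all genes tested). The median was -1.02, or -1.47 without a gene at the floor in U87. The riser was ADM (1.43, adjusted p = 0.00166). VEGFA had a log2 fold change of 0.59 (adjusted p = 0.172), or 0.16 without EV replicate 1 and 1.33 without EV replicate 2. NDRG1 fell by 1.55 (adjusted p = 0.000458). PFKFB4 fell by 2.65 (adjusted p = 1.2e-05) and lactate dehydrogenase LDHA by 1.93 (adjusted p = 8.22e-05). CA9, a carbonic anhydrase, had 3941 reads over EV and 5 over OE, a ratio of 832 with an exact 95% interval of 356 to 2564 for counting error only. The list median was -0.86 without EV replicate 1 and -1.05 without EV replicate 2. More hypoxia genes passed in the direction of ANGPTL4 than against it in each line, and their part in the ANGPTL4 result was not tested.

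Of 9 tested glucocorticoid response genes, 2 rose and 0 fell on knockdown (6.99% and 8.75% of all genes tested), with a median of 0.14. TSC22D3 rose by 1.52 (adjusted p = 0.00195) and DUSP1 by 1.06 (adjusted p = 0.00113). On overexpression 3 rose and 1 fell (11.3% and 14.9% of all genes tested), with a median of 0.64. SGK1 was higher by 3.00 (adjusted p = 0.000348) and DUSP1 by 2.17 (adjusted p = 7.15e-05). MT2A was lower (log2 fold change -1.72, adjusted p = 0.0489), but had -0.06 without EV replicate 1. DUSP1 was thus higher in both comparisons, unlike ANGPTL4, and so was TSC22D3 (1.06 on overexpression, adjusted p = 0.0154). On knockdown SGK1 had -0.58 (adjusted p = 0.155) and MT2A 1.12 (adjusted p = 0.128), so their signs differed between the comparisons. The part of these genes in the ANGPTL4 result was not tested.

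**Figure D4:**
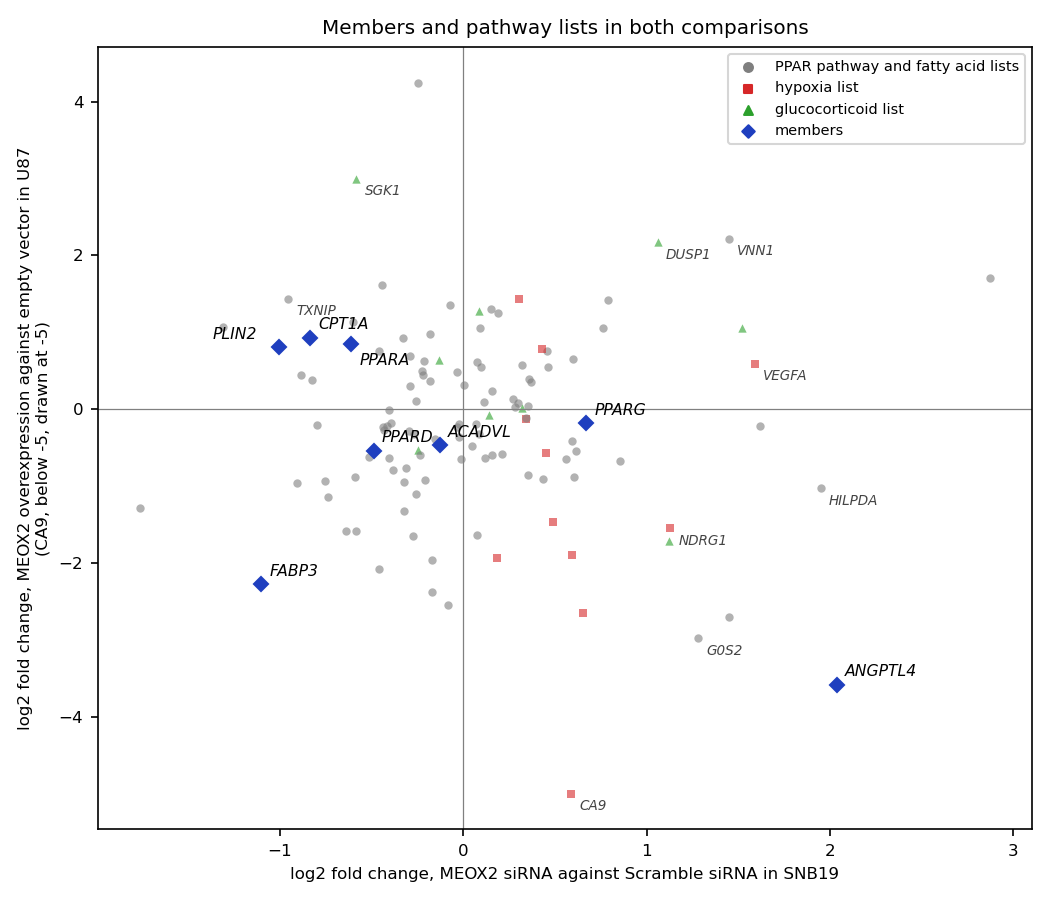
Log2 fold change on MEOX2 siRNA in SNB19 (x axis) against log2 fold change on MEOX2 overexpression in U87 (y axis) for the members (diamonds), the PPAR pathway lists (circles), the hypoxia list (squares) and the glucocorticoid list (triangles). Genes at or under 3 counts in every library of a line are left out, CA9, which lies lower, is drawn at the lower end of the y axis, ANGPTL4 lies at 2.04 and -3.58, and 11 of the 12 hypoxia genes are drawn.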

How the data were processed

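RNA was sequenced from 10 libraries of 2 human glioma cell lines. Per the labels and processing notes, the authors aligned reads to GRCh38 with HISAT2 and made raw counts per gene with HTSeq 0.11.2. The deposited FPKM values divide those counts by the library total and by an exon length that equals the GENCODE 29 exon union for all 10 members. Counts were tested with edgeR 4.0.16 (R 4.3.3; TMM scaling, filterByExpr, quasi-likelihood test, all 10 libraries in 1 fit with 4 groups, Benjamini-Hochberg adjustment over 17312 genes, called at an adjusted p under 0.05). In simulated counts, 96% of genes changed by 2 on the log2 scale were recovered for the knockdown and 86% for the overexpression. For genes changed by 1 the shares were 40% and 23%. The changed genes were drawn from those with higher mean counts, so the rates do not cover FABP3, PLIN2 or PPARG. Each gene and library was drawn independently, without a shift shared across genes as in EV replicate 1. DESeq2 1.42.0, limma 3.58.1 on log2(FPKM + 1), other scalings and filters, each line alone, a replicate block and each library left out were alternatives. CPM values use TMM scaling, and intervals on read ratios cover counting error only.

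The members and lists were chosen with earlier results of these data known. Named genes are the members, MEOX2, at most 3 called genes of largest change per list and comparison, and the 5 nearest to ANGPTL4. CRAT was named after its values were seen, as the last of 4 called genes. ADM was likewise named after its values were seen, as the only hypoxia gene called higher on overexpression. A gene that this rule names in the peroxisomal list is not reported here. Strandedness of the counting is not given in the sources used here. The labels of the U87 libraries name the vector inconsistently, and groups follow the leading name of each title. The titles of both OE libraries hold the same library name in brackets, so their replicate numbers also follow the leading name. The replicate blocks in U87 rest on those numbers.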

Additional observations from a re-analysis of the deposited data

Results flagged for a closer look

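2 genes differed between the lines in how they followed MEOX2, by the test of the difference itself. For PPARD the MEOX2-higher minus MEOX2-lower log2 difference was 1.03 larger in SNB19 than in U87 (0.49 against -0.54, edgeR adjusted p = 0.00181), and it stayed between 0.95 and 1.05 with any 1 library left out. For FABP3 the same difference was 3.38 (1.10 against -2.28, adjusted p = 0.00367), between 3.15 and 3.95 with any 1 library left out. FABP3 had 9 to 49 counts per library, so each value rests on few reads. The lines also differ in how MEOX2 was changed, which cannot be told apart from the line.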

How the results depend on the processing

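ANGPTL4 kept its direction and its call on knockdown in all alternatives (log2 fold change 1.72 to 2.14) and its direction on overexpression in all (-4.10 to -2.33), where the call was lost only with U87 fitted alone (-3.61, adjusted p = 0.156). Other counts moved widely. With a line fitted alone, 8683 genes and 6 members passed on knockdown and 0 genes and 0 members on overexpression. With the replicate number as a block, 972 genes and 1 member (ANGPTL4) passed on knockdown (CPT1A had an adjusted p of 0.0505 and PPARD 0.079) and 2126 genes and 3 members on overexpression. Same-numbered libraries hardly deviated together in SNB19 (correlations 0.003 to 0.059). In U87 the correlation was -0.162 for the same number and 0.162 for crossed numbers. With 2 libraries per group these values mirror each other by construction, so they cannot show whether the numbers mark pairs. Crossing the U87 numbers (chosen after seeing the data) gave 3710 genes. The list counts and medians without an EV library or with SNB19 alone were likewise added after seeing the data. At an unadjusted p under 0.05 with an absolute log2 fold change over 1, 3963 genes and 2 members passed on overexpression. By the same rule 1842 genes and 2 members passed on knockdown.

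With each library left out in turn, the genes called ranged from 1148 to 8700 on knockdown, 1553 to 10929 on overexpression and 2265 to 10435 for the difference between lines. The members called ranged from 2 to 6, 1 to 7 and 2 to 6, and from 4 to 8 between controls. With all 10 libraries, 15.7%, 26.2% and 24.4% of all genes tested passed in these comparisons, and 56.9% between controls. Of the 9 tested members 3, 4, 2 and 5 passed there. Each highest count of genes came without EV replicate 2. In that fit the spread between EV libraries no longer enters, and the lone EV library is assumed to vary like the other groups. Leaving out any of the 6 SNB19 libraries gave 1148 to 1507 genes on knockdown, and leaving out OE replicate 1 or 2 gave 1553 and 1675 on overexpression. Directions turned in these ranges: on overexpression PLIN2 -0.13 to 3.80, FABP5 -1.79 to 0.37 and ACADVL -0.77 to 0.02; between controls PLIN2 -0.06 to 3.88 and CPT1A -0.36 to 0.25; for the difference between lines PLIN2 -2.80 to 1.12, CPT1A -0.49 to 0.14, PPARA -0.94 to 0.17 and PPARG -1.34 to 0.18. ANGPTL4 ranged from 0.59 to 2.05 there, and passed with DESeq2 (1.51) and with no filter on low counts (1.54). On log2(FPKM + 1), PPARG on overexpression was 0.02, CPT1A between controls 0.30 and PLIN2 for the difference between lines 0.0. The causes of these shifts were not tested. Depth limits PDK4, PLIN2, PPARG in SNB19 and FABP5 in SNB19, which had few reads.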
